A study of Mus musculus with 6 samples.

Results

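The 29 genes examined encode enzymes and regulators of cholesterol and fatty acid synthesis: 18 enzymes from acetoacetyl-CoA thiolase to 7-dehydrocholesterol reductase, 5 genes of sterol sensing and transport, and 6 genes of fatty acid synthesis. They were chosen by name, as members of the pathway, with earlier results of these data known. All 29 were among the 45527 named genes of the count table and passed the filter on low counts. Messenger RNA was sequenced from mouse satellite cells, which express Pax7 and act as the stem cells of skeletal muscle, sorted for yellow fluorescent protein 24 h after the lower hindlimb muscles had received 30 µl of cardiotoxin, a venom toxin that destroys muscle fibres. All mice carried Pax7creER, a tamoxifen-dependent Cre recombinase driven by the Pax7 promoter, and the Cre-dependent reporter R26R-YFP. Controls (3 libraries) had 1 floxed and 1 intact allele of Paxbp1 (Paxbp1flox/+), so they shared both the recombinase and a floxed allele with the other group. The 3 libraries labelled Paxbp1-iKO came from mice with both alleles floxed (Paxbp1flox/flox). Paxbp1 encodes a partner of the transcription factors Pax3 and Pax7.

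Cells make cholesterol from acetyl-CoA by way of mevalonate, isoprenoid diphosphates, squalene and lanosterol, and the same acetyl-CoA pool feeds the synthesis of fatty acids. Both branches are controlled by the SREBP transcription factors, encoded by Srebf1 and Srebf2, which the escort protein Scap carries from the endoplasmic reticulum to the Golgi for cleavage unless Insig proteins hold them back when sterols are plentiful. Dividing cells draw on both branches for new membrane.

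Totals ran from 23327359 to 28050748 counts per library. Levels are given as CPM (counts scaled to a common library size with TMM, edgeR's correction for library composition) to compare libraries. To compare genes they are given as the deposited FPKM (fragments relative to the length of the gene and to a size factor of the library). Changes are log2 fold changes of iKO-labelled against control ± SE. A gene is called, and said to rise or fall, at an adjusted p under 0.05 (edgeR's quasi-likelihood test, Benjamini-Hochberg over the 16252 genes that passed the filter). Where values of libraries are set against each other, controls 1 to 3 come first and iKO-labelled libraries 1 to 3 second. The study describes 3 pairs of mice, but the labels do not say that each library is 1 mouse, so p-values measure the spread between these libraries. Bulk RNA also cannot separate fewer cells of a type from less RNA per cell. Paxbp1 itself, the check of the labels, stood at 70.8, 74.1 and 61.0 CPM in controls 1 to 3 and 96.2, 108 and 127 in iKO-labelled libraries 1 to 3 (0.68 ± 0.13, adjusted p = 0.00954). That is higher in every library labelled Paxbp1-iKO, which goes against the label. An unstranded overlap with 4930404I05Rik covers 20.7% of its exon bases. The counts cover the whole gene, the position of the floxed part is not given in the labels used here, and all directions that follow rest on the labels as they stand.

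In the iKO-labelled libraries 3 of 6 fatty acid synthesis genes fell (50%, against 12.3% of all tested genes) and none rose. Of 18 sterol enzymes 2 fell and 2 rose, 11.1% each way, close to the 12.3% and 8.15% of all tested genes. None of the 5 sensing and transport genes was called. Of the 29 genes, 5 fell (Nsdhl, Acat2, Acly, Fasn and Elovl6), which is 17.2% against 12.3% of all tested genes. Hmgcs1 and Lss rose, 6.90% against 8.15% of all tested genes. The share that rose was thus close to that of all genes. With library totals in place of TMM, 5 fell and 4 rose. No gene rose without control 3, iKO 1 or iKO 2, and 1 rose without control 1 or iKO 3. Calls over all tested genes, both directions together, numbered 3315 in the main test and 3361 with library totals. With a library left out they ran from 2053 to 2816. All 3 iKO-labelled libraries lay below all 3 controls for 9 of the 29 (31.0%, against 20.9% of tested genes) and above them for 4 (13.8%, against 18.9%). The median log2 fold change over the 29 genes was -0.13, beside 0.023 over all tested genes. Of 8 satellite cell markers 5 rose and 2 fell, and of 5 mural cell markers Acta2 fell (-2.24, adjusted p = 5.3e-04). The part of these in the counts was not tested.

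**Figure D1:**
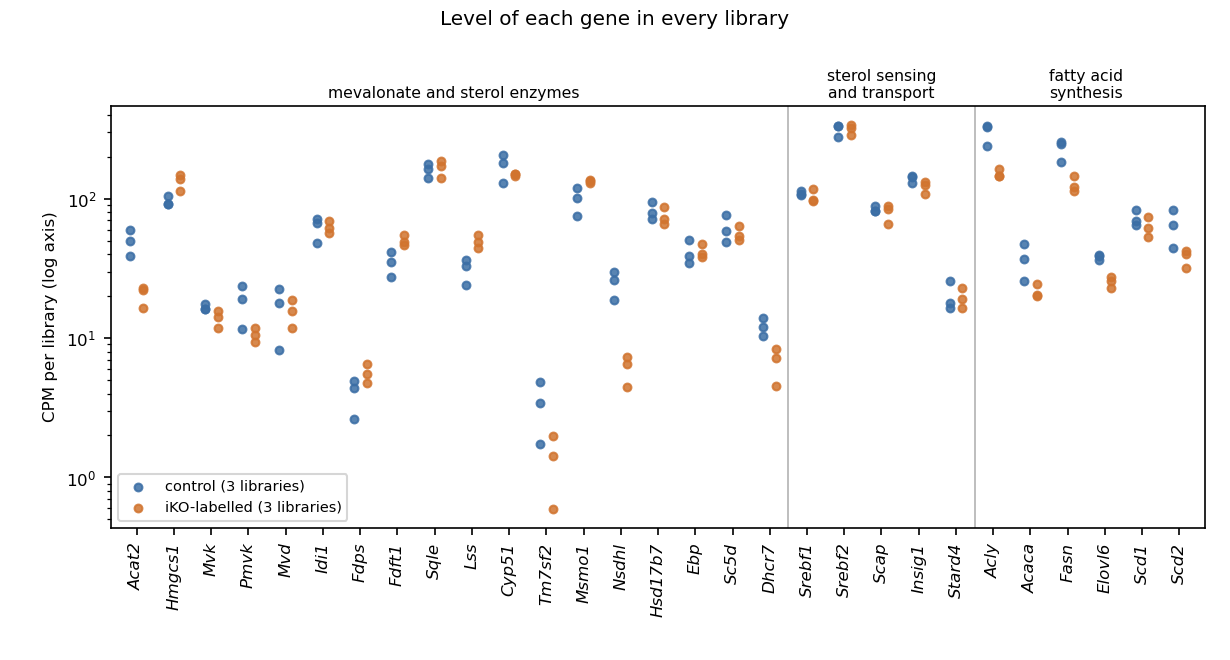
Level of each of the 29 genes in every library, in CPM on a log axis, in pathway order. Blue points are the 3 control libraries and orange points the 3 iKO-labelled libraries. The orange points lie wholly below the blue ones for 5 of the 6 fatty acid synthesis genes (83.3%, against 20.9% of all tested genes). For none of the 5 sensing and transport genes do the groups separate. Of all tested genes, 20.9% separate with iKO-labelled libraries lower and 18.9% with them higher.

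Promoter sequences are shown where the window held the searched letters of a sterol regulatory element, a site to which SREBPs bind. They are given since the results turn on how SREBP-controlled genes compare. Other forms of the element were not searched, so a gene without a match may still hold one. RefSeq promoters (build GRCm38.p6, from 250 bases before to 50 after a start site) matched 23 of the 29 genes, with 29 promoters in all. Fdps, Fdft1, Sqle, Stard4, Scd1 and Scd2 had none in the table. The full element searched on both strands was TCACNCCAC, and its core was TCACNCCA, which every full element contains. The full element was found in 1 of the 29 promoters, that of Hmgcs1, and in 1.24% of the 32851 promoters of the table. The Hmgcs1 element starts 137 bases before the start site. The 250 bases before the start site of Hmgcs1 (chr13:119690101-119690350, plus strand) are given 5′ to 3′, with the full element in capitals:
Hmgcs1: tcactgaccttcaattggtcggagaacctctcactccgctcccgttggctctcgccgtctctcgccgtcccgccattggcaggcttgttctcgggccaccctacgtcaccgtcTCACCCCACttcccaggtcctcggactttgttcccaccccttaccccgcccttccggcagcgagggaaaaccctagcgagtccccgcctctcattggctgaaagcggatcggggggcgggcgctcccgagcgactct

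The core was found in 3 promoters of 29 (10.3%), those of Hmgcs1, Msmo1 and Srebf2, and in 4.36% of all promoters. These 30-base windows set the sites side by side with the core in capitals, from chr13:119690203-119690232 (plus strand), chr8:64733737-64733766 (minus strand) and chr15:82147096-82147125 (plus strand):
Hmgcs1: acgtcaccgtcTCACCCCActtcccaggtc
Msmo1: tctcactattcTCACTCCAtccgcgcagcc
Srebf2: atgacgcaccaTCACCCCAtgagccgcttc

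Of these 3 genes, Hmgcs1 rose, Msmo1 was higher in every iKO-labelled library without being called, and Srebf2 overlapped between the groups. The CCAAT box bound by NF-Y (CCAAT, both strands) was in 69.0% of the 29 promoters and 37.4% of all promoters, and the GC box bound by Sp1 (GGGCGG, both strands) in 75.9% and 35.7%. The E-box CACGTG, which reads alike on both strands, was in 20.7% and 7.15%. Among the 29 promoters it was found in 6, which belong to 5 genes, since both overlapping windows of Scap hold the same site. These matches describe letters in a window and are not binding measurements. The CCAAT box was present for the falling Acly, Fasn and Nsdhl as well as for the rising Hmgcs1 and Lss, and was not found in the windows of the falling Acat2 and Elovl6.

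The first steps of the sterol branch went in opposite directions. Acat2, the cytosolic thiolase that joins a pair of acetyl-CoA molecules (chromosome 17, 12942890 to 12960747, minus strand, GRCm38), stood at 49.9, 59.9 and 38.9 CPM in controls 1 to 3 and 16.4, 22.1 and 22.7 in iKO-labelled libraries 1 to 3. Every iKO-labelled library lay below every control, and Acat2 fell (-1.28 ± 0.21, adjusted p = 0.00437), a call held in all 15 alternative settings. Acat3, a close relative next to it, had 36, 45 and 43 counts in controls 1 to 3 and 41, 6 and 28 in iKO-labelled libraries 1 to 3, so it holds few reads beside those of Acat2. Hmgcs1, which adds the next acetyl group to form HMG-CoA (chromosome 13, 119690379 to 119708260, plus strand), stood at 104, 91.96 and 91.9 CPM in controls 1 to 3 and 148, 138 and 114 in iKO-labelled libraries 1 to 3. It rose (0.47 ± 0.12, adjusted p = 0.027), and the groups did not overlap, although iKO 3 lay closer to the controls than the other 2 iKO-labelled libraries. The call ended without control 2 (0.45, adjusted p = 0.0769), without control 3 (0.46, adjusted p = 0.0773), without iKO 1 (0.39, adjusted p = 0.0914), without iKO 2 (0.45, adjusted p = 0.0996) and with limma on log2(FPKM + 1) of all genes (0.47, adjusted p = 0.0569). An annotated antisense gene, Gm48342, overlaps 12.1% of the exon bases of Hmgcs1.

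The kinases, decarboxylase and isomerase that turn mevalonate into the isoprenoid building blocks were not called. Mevalonate kinase, Mvk, was at 16.2, 16.2 and 17.7 CPM against 15.6, 14.05 and 11.8 (-0.27 ± 0.19, adjusted p = 0.368), so the iKO-labelled libraries lay just below the controls. Phosphomevalonate kinase, Pmvk, was at 18.9, 23.8 and 11.7 CPM against 9.43, 11.8 and 10.5 (-0.78 ± 0.28, adjusted p = 0.0905), where control 3 lay within the iKO-labelled range, and it was called without control 3 (-1.002, adjusted p = 0.0303). For Mvd, the decarboxylase, the controls alone spread from 8.28 to 22.5 CPM and enclosed all 3 iKO-labelled values (-0.077 ± 0.36, adjusted p = 0.911). Idi1, the isomerase that makes dimethylallyl diphosphate, had nearly equal means of 62.2 ± 12.1 and 62.3 ± 5.91 CPM (SD, n = 3 per group; 0.0020 ± 0.16, adjusted p = 0.995). Of its exon bases, 9.22% overlap the opposite-strand gene Gm48574.

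Among the enzymes that build and close squalene, Lss rose and its neighbours ranged from level to higher. Fdps, which makes farnesyl diphosphate, had only 110, 114 and 68 counts in controls 1 to 3 and 186, 162 and 118 in iKO-labelled libraries 1 to 3 (0.50 ± 0.35, adjusted p = 0.386), and 26.7% of its exon bases are shared with the annotated gene Gm43738 on the same strand, so its count is uncertain. Fdft1, squalene synthase, was at 35.2, 41.6 and 27.6 CPM against 46.4, 54.7 and 48.9 (0.52 ± 0.17, adjusted p = 0.0684). Each iKO-labelled library exceeded each control, and Fdft1 was called in 7 of the 15 alternative settings, among them without control 2 (0.68, adjusted p = 0.0391). Of its exon bases, 18.3% overlap the opposite-strand gene Ctsb, whose reads cannot be told apart there, since Smart-Seq2 libraries keep no strand, and Ctsb was at 583 ± 25.9 and 544 ± 51.4 CPM (-0.10 ± 0.083, adjusted p = 0.462).

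Sqle, the squalene epoxidase and a controlled step of the branch, was at 164, 177 and 141 CPM against 171, 186 and 139.9 (0.045 ± 0.13, adjusted p = 0.853), with the controls inside the iKO-labelled range. Lss, which closes the epoxide to lanosterol (chromosome 10, 76531588 to 76557138, plus strand), stood at 33.0, 36.2 and 23.9 CPM in controls 1 to 3 and 49.0, 55.1 and 44.6 in iKO-labelled libraries 1 to 3. It rose in every iKO-labelled library against every control (0.68 ± 0.18, adjusted p = 0.0341). Its call ended without control 1 (0.72, adjusted p = 0.0601), without control 3 (0.53, adjusted p = 0.0686), without iKO 1 (0.68, adjusted p = 0.0842), without iKO 2 (0.59, adjusted p = 0.122), without iKO 3 (0.75, adjusted p = 0.0644) and with limma on log2(FPKM + 1) of all genes (0.55, adjusted p = 0.12), and of the 6 libraries only control 2 could be left out with the call held (0.81, adjusted p = 0.0319).

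The demethylation of lanosterol contained both the largest fall of the set and one of its higher genes. Cyp51, the 14-demethylase, was at 205, 179 and 129.8 CPM against 149, 150.5 and 145, with the iKO-labelled libraries inside the control range (-0.21 ± 0.15, adjusted p = 0.414). Tm7sf2, a sterol 14-reductase, was among the 2 lowest genes of the set, at 76, 45 and 127 counts in controls 1 to 3 and 17, 58 and 35 in iKO-labelled libraries 1 to 3 (-1.32 ± 0.61, adjusted p = 0.182), and the groups overlapped. It shares 12.1% of its exon bases with Vps51, so this count is uncertain too. Msmo1, the 4-methyl oxidase, was at 101, 119.9 and 74.9 CPM against 134, 137 and 129.7. The iKO-labelled libraries were all higher and closely grouped, but the change was not called (0.44 ± 0.16, adjusted p = 0.0975). It was called in 5 of the 15 alternative settings, among them without control 2 (0.60, adjusted p = 0.0309).

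Nsdhl, the 4-carboxysterol dehydrogenase that acts directly after Msmo1 (chromosome X, 72918557 to 72958514, plus strand), stood at 25.9, 29.8 and 18.9 CPM in controls 1 to 3 and 6.52, 7.36 and 4.42 in iKO-labelled libraries 1 to 3. Every iKO-labelled library was far below every control, and Nsdhl fell (-2.02 ± 0.27, adjusted p = 0.00193) to 0.246 of the control level, a call held in all 15 alternative settings. In FPKM, the ratio of Nsdhl to Msmo1 was 0.551, 0.535 and 0.543 across the controls against 0.105, 0.116 and 0.0734 across the iKO-labelled libraries, a ratio chosen after the values were seen. Hsd17b7, the 3-ketosteroid reductase of the same demethylation cycle, was at 94.2, 71.0 and 79.0 CPM against 66.2, 87.3 and 71.8, with overlapping groups (-0.12 ± 0.15, adjusted p = 0.656). Within that cycle, therefore, 1 enzyme fell, 1 was higher without a call and 1 overlapped.

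The last steps were level or lower. Ebp, the isomerase that shifts the sterol double bond, was at 34.8, 38.5 and 50.5 CPM against 38.4, 40.3 and 47.6 (0.029 ± 0.17, adjusted p = 0.932). Sc5d, the 5-desaturase, was at 76.4, 58.9 and 48.7 CPM against 50.8, 63.3 and 54.4 (-0.13 ± 0.18, adjusted p = 0.686). Neither gene separated the groups. Dhcr7, which reduces 7-dehydrocholesterol to cholesterol, was at 11.9, 14.03 and 10.3 CPM against 7.22, 8.28 and 4.54, so the iKO-labelled libraries were all lower, but the change was not called (-0.85 ± 0.29, adjusted p = 0.0747). DESeq2 placed Dhcr7 just under the threshold (-0.83, adjusted p = 0.0496).

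**Figure D2:**
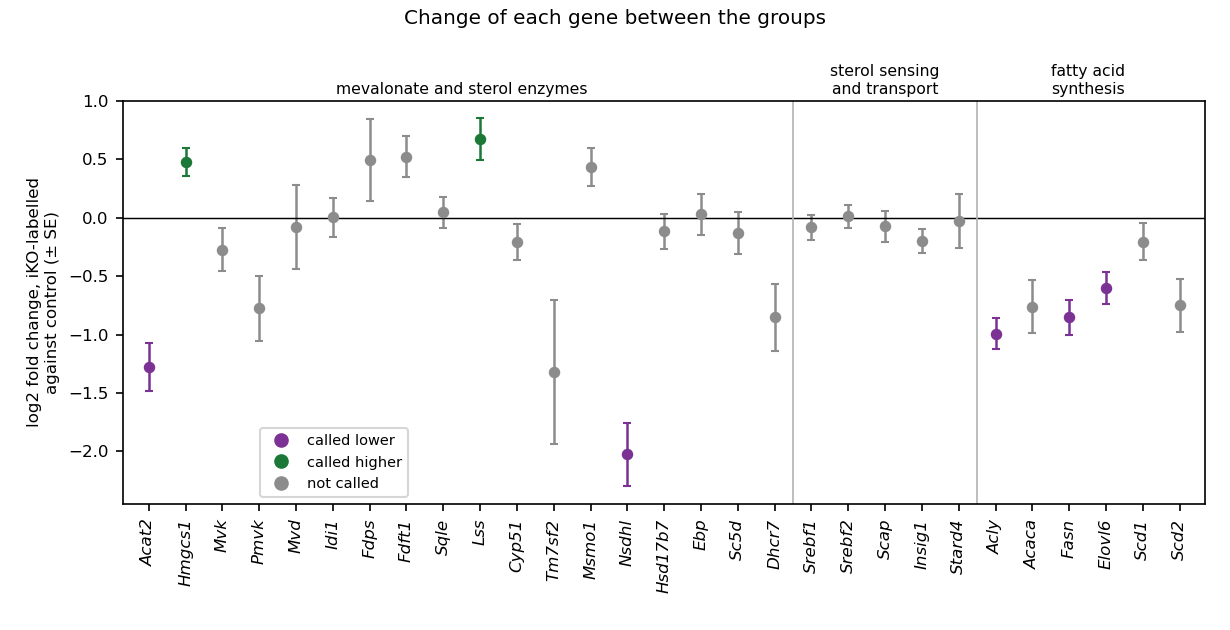
Log2 fold change of each gene, iKO-labelled against control, with its SE, in pathway order. Purple points were called lower, green points higher and grey points not called. Nsdhl is lowest at -2.02, Lss highest at 0.68, and all 6 fatty acid synthesis genes lie below 0.

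The sensing and transport genes showed no call in either direction. Srebf2, the SREBP that mainly drives sterol enzymes, was at 332, 332 and 275 CPM against 319, 339 and 288 (0.011 ± 0.10, adjusted p = 0.957). Srebf1, which mainly drives fatty acid enzymes, was at 105, 109 and 114 CPM against 97.0, 96.5 and 116 (-0.082 ± 0.10, adjusted p = 0.651). Each iKO-labelled range overlapped the control range, and the ratio of Srebf2 to Srebf1 in FPKM was 3.56, 3.45 and 2.72 in the controls and 3.71, 3.96 and 2.80 in the iKO-labelled libraries. The escort Scap was at 81.2, 81.4 and 89.3 CPM against 84.7, 65.8 and 88.8 (-0.074 ± 0.13, adjusted p = 0.76). An annotated gene on the opposite strand, 5830462I19Rik, overlaps 13.2% of the exon bases of Scap. Insig1, which retains the Scap complex and is itself an SREBP target, was at 142, 145 and 129 CPM against 107, 125 and 131 (-0.20 ± 0.10, adjusted p = 0.235), and iKO 3 lay inside the control range. Stard4, a carrier that moves cholesterol between membranes, was at 25.5, 17.8 and 16.3 CPM against 22.99, 18.9 and 16.5 (-0.027 ± 0.23, adjusted p = 0.951). These p-values do not show that the 5 messenger RNAs were equal, and messenger RNA does not report how much SREBP was cleaved.

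Although Scd1 overlapped between control and iKO-labelled libraries, fatty acid synthesis was the group with every fold change below 0. Of its 6 genes 3 fell (50%, against 12.3% of all tested genes) and none rose. In 5 the groups did not overlap, all lower (83.3%, against 20.9%), and the median was -0.76. Acly, the citrate lyase that delivers cytosolic acetyl-CoA to both branches (chromosome 11, 100476353 to 100528000, minus strand), stood at 334, 328 and 239 CPM in controls 1 to 3 and 163, 146 and 145 in iKO-labelled libraries 1 to 3. It fell to about the same level in all 3 iKO-labelled libraries (-0.99 ± 0.13, adjusted p = 0.00196). Acaca, the carboxylase that makes malonyl-CoA, was at 47.4, 25.7 and 36.8 CPM against 20.05, 20.4 and 24.4 (-0.76 ± 0.23, adjusted p = 0.0512), which misses the threshold, although the groups did not overlap. It was called in 4 of the 15 alternative settings, among them without control 2 (-0.96, adjusted p = 0.0168). Fasn, the synthase that assembles palmitate (chromosome 11, 120805846 to 120824547, minus strand), stood at 248, 183 and 255 CPM in controls 1 to 3 and 121, 145 and 114 in iKO-labelled libraries 1 to 3 and fell (-0.85 ± 0.15, adjusted p = 0.00581). The lowest control of Fasn was still above the highest iKO-labelled library. The calls of Acly and Fasn held in all 15 alternative settings.

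Elovl6, which extends palmitate (chromosome 3, 129532355 to 129638495, plus strand), stood at 39.4, 38.7 and 36.2 CPM in controls 1 to 3 and 22.8, 27.3 and 25.5 in iKO-labelled libraries 1 to 3. Its controls were tightly grouped, and it fell in every iKO-labelled library (-0.60 ± 0.14, adjusted p = 0.0181). The call ended without control 1 (-0.57, adjusted p = 0.0554), without control 2 (-0.58, adjusted p = 0.0578), without iKO 1 (-0.53, adjusted p = 0.0589), without iKO 3 (-0.61, adjusted p = 0.062), with limma on log2(FPKM + 1) of all genes (-0.48, adjusted p = 0.0585) and with the replicate number as a block (-0.60, adjusted p = 0.0569). The desaturases Scd1 and Scd2 insert the double bond that makes oleate and palmitoleate. Scd2 was at 82.9, 44.5 and 64.2 CPM against 31.6, 42.1 and 40.0 (-0.75 ± 0.23, adjusted p = 0.0529), without overlap and just short of a call, and was called in 6 of the 15 alternative settings, among them without control 2 (-0.95, adjusted p = 0.0151). Scd1 was at 64.9, 69.7 and 82.5 CPM against 52.7, 74.4 and 61.2, with overlapping groups (-0.20 ± 0.16, adjusted p = 0.431), and the difference between the 2 paralogs was not tested. Scd1 made up 46.9, 63.8 and 59.2% of the summed Scd1 and Scd2 FPKM in controls 1 to 3 and 65.2, 66.6 and 63.3% in iKO-labelled libraries 1 to 3. Both genes lie on chromosome 19, with their relative Scd4 between them, and resemble each other, and the counting of reads that match both is another point not given in the files or labels used here.

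Summed over genes, the sterol enzymes took 280.3, 277 and 220.3 FPKM in controls 1 to 3 and 251, 273 and 237 FPKM in iKO-labelled libraries 1 to 3. The groups overlapped, and the iKO-labelled mean was 0.979 of the control mean. The fatty acid genes summed to 122, 109 and 106 FPKM in the controls and 63.8, 69.9 and 63.5 FPKM in the iKO-labelled libraries. There the groups were far apart, at a ratio of 0.586. For the sensing and transport genes the sums were 142, 144 and 129.7 FPKM and 129.7, 136 and 134 FPKM, a ratio of 0.961. These sums weigh abundant genes most and were not tested.

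**Figure D3:**
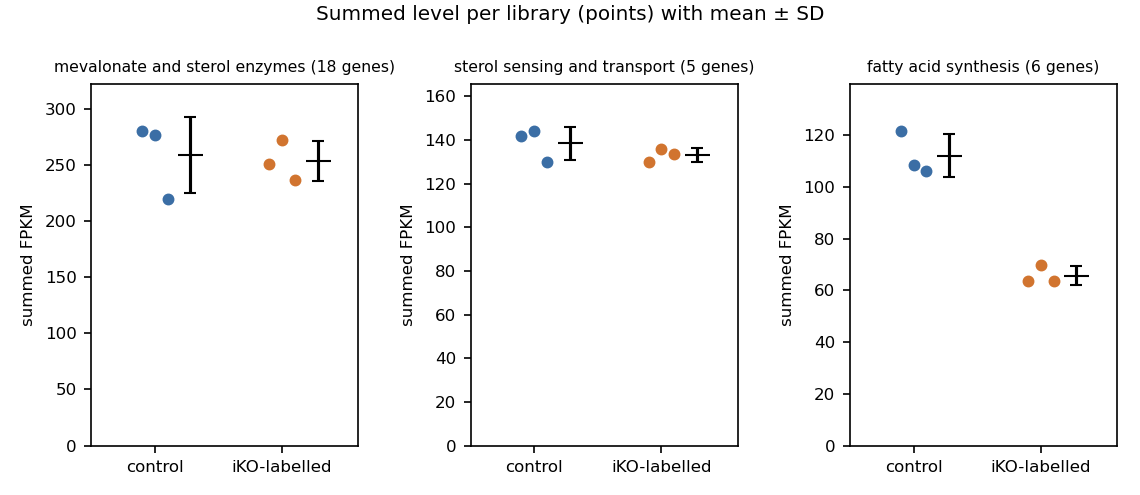
Summed FPKM of the 18 sterol enzymes, the 5 sensing and transport genes and the 6 fatty acid synthesis genes. Points are libraries and bars the mean ± SD of 3 libraries, on axes that start at 0. The 6 fatty acid genes have means of 112 and 65.7 FPKM without overlap, while the other 2 sums overlap between the groups.

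Per length, the most abundant of the 29 messenger RNAs in the controls were Srebf2 (61.2 ± 6.11 FPKM, mean ± SD, n = 3), Acly (55.5 ± 9.48), Insig1 (43.8 ± 2.61) and Cyp51 (37.8 ± 8.09). Neighbours in this order, such as Srebf2 and Acly or Insig1 and Cyp51, did not differ beyond their spread. The least abundant were Tm7sf2 (0.934 ± 0.442) and Fdps (0.921 ± 0.275). Both share exon bases with another gene on the same strand, so these levels are uncertain. In the iKO-labelled libraries Srebf2 was still highest (62.3 ± 5.04), Hmgcs1 moved from rank 5 to rank 2 (40.7 ± 5.43), and Acly from rank 2 to rank 6 (28.3 ± 1.91). Acat2 went from rank 9 to rank 18.

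Other genes of lipid metabolism were counted in 6 further lists, of which 101 of 102 genes were tested. Over all 6 lists 32 fell (31.7%, against 12.3% of all tested genes) and 6 rose (5.94%, against 8.15%), with a median of -0.26. Without iKO 2, and likewise without iKO 3, 21 fell, and 3, 3 and 2 rose without control 2, iKO 1 and iKO 3. With library totals 25 fell and 10 rose. Calls over all tested genes, both directions together, were 3315 in the main test and 3361 with library totals. They were 2463 without control 2, 2448 without iKO 1, 2053 without iKO 2 and 2103 without iKO 3. The list of fatty acid supply, elongation and desaturation held more of them than any other list: of 27 tested, 14 were lower (51.9%) and 2 higher by call, the median being -0.52. Tecr, the reductase that ends each elongation cycle, was at 112, 137 and 133 CPM against 51.2, 61.8 and 55.3 (-1.18 ± 0.12, adjusted p = 5.7e-04). Every iKO-labelled library had less than the lowest control. The long-chain acyl-CoA synthetases Acsl3 (-1.20 ± 0.16, adjusted p = 0.00197) and Acsl4 (-0.93 ± 0.097, adjusted p = 6.2e-04) and the elongase of polyunsaturated chains Elovl5 (-1.13 ± 0.17, adjusted p = 0.00313) fell too.

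Singled out after their values were seen, the desaturases Fads1 (-1.18 ± 0.19, adjusted p = 0.00383) and Fads2 (-1.31 ± 0.27, adjusted p = 0.0122) and the mitochondrial citrate carrier Slc25a1 (-0.74 ± 0.17, adjusted p = 0.0183), which exports the substrate of Acly, fell as well. The calls of Fads2 and Slc25a1 did not hold throughout: that of Fads2 ended without iKO 2 (-1.20, adjusted p = 0.0537), and that of Slc25a1 without control 2 (-0.74, adjusted p = 0.051), without control 3 (-0.63, adjusted p = 0.0685), without iKO 2 (-0.70, adjusted p = 0.0744), without iKO 3 (-0.66, adjusted p = 0.0744) and with the replicate number as a block (-0.74, adjusted p = 0.0605). Of the other suppliers of fatty acid synthesis, the acetate-activating enzyme Acss2 (-0.26 ± 0.30, adjusted p = 0.613), the NADPH-making malic enzyme Me1 (-0.35 ± 0.18, adjusted p = 0.208) and Mid1ip1, which promotes the polymer form of acetyl-CoA carboxylase (0.24 ± 0.19, adjusted p = 0.454), were not called. Acss2, Me1 and Mid1ip1 were likewise singled out after their values were seen. The 2 risers of the list, also singled out afterwards, were rare. Acacb, the mitochondrial-membrane form of acetyl-CoA carboxylase, had 76, 64 and 29 counts in controls 1 to 3 and 306, 192 and 205 in iKO-labelled libraries 1 to 3 (1.87 ± 0.45, adjusted p = 0.0218), the opposite direction to Acaca, and its call ended without control 2 (1.93, adjusted p = 0.0503), without iKO 1 (1.67, adjusted p = 0.0769), without iKO 3 (1.89, adjusted p = 0.066) and with limma on log2(FPKM + 1) of all genes (0.60, adjusted p = 0.175). Scd4 had 1, 0 and 1 counts in controls 1 to 3 and 14, 37 and 23 in iKO-labelled libraries 1 to 3, a ratio of summed counts per library total of 36.5 (exact 95% interval 9.75 to 307, which covers counting error only). Scd4 lost its call without control 1 (adjusted p = 0.0512), without control 2 (adjusted p = 0.0555), without control 3 (adjusted p = 0.0617), without iKO 2 (adjusted p = 0.0938), without iKO 3 (adjusted p = 0.0764), with limma on log2(FPKM + 1) of all genes (adjusted p = 0.0677) and with the replicate number as a block (adjusted p = 0.0793).

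In the list of other sterol and isoprenoid steps 5 of 15 fell and 2 rose (33.3% and 13.3%, against 12.3% and 8.15% of all tested genes). Lbr, a nuclear envelope protein that also carries the sterol 14-reductase activity of Tm7sf2, was at 309.7, 291 and 292 CPM against 146, 176 and 160.3 (-0.89 ± 0.088, adjusted p = 5.4e-04), and the groups were far apart. Coq2, which attaches the isoprenoid tail of ubiquinone, was at 27.5, 41.0 and 55.7 CPM against 4.80, 9.78 and 7.83 (-2.47 ± 0.34, adjusted p = 0.00211). Pdss1, which makes that tail, fell (-0.74 ± 0.16, adjusted p = 0.0135; singled out after its value was seen). Fnta, the shared subunit of the protein prenyltransferases (-0.69 ± 0.11, adjusted p = 0.00392), and Rce1, the protease that trims prenylated proteins (-0.72 ± 0.12, adjusted p = 0.00437), fell, while Icmt, the methyltransferase that follows Rce1, rose (0.43 ± 0.095, adjusted p = 0.0167; singled out likewise). The call of Pdss1 ended without iKO 3 (-0.75, adjusted p = 0.0518), and that of Icmt without control 2 (0.40, adjusted p = 0.0597), without iKO 2 (0.45, adjusted p = 0.0512), without iKO 3 (0.38, adjusted p = 0.0614) and with the replicate number as a block (0.43, adjusted p = 0.0581).

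Of 11 genes of SREBP processing and turnover 2 fell (18.2%, against 12.3% of all tested genes) and none rose. Mbtps1, the site-1 protease that makes the first cut in SREBPs, was at 162, 130.1 and 156 CPM against 81.0, 109 and 87.4 (-0.69 ± 0.14, adjusted p = 0.0113). Its call ended without iKO 3 (-0.65, adjusted p = 0.0516). Rnf145, a sterol-responsive ubiquitin ligase, was at 71.7, 97.4 and 111 CPM against 53.2, 67.9 and 64.1 (-0.60 ± 0.18, adjusted p = 0.0467), and its call ended in 10 of the 15 alternative settings, including without control 2 (-0.57, adjusted p = 0.122), without control 3 (-0.44, adjusted p = 0.155), without iKO 1 (-0.50, adjusted p = 0.139), without iKO 2 (-0.67, adjusted p = 0.0845) and without iKO 3 (-0.63, adjusted p = 0.112). The ubiquitin-conjugating enzyme Ube2g2 (0.32 ± 0.12, adjusted p = 0.102) and Erlin2, a membrane protein of the endoplasmic reticulum (-0.27 ± 0.15, adjusted p = 0.256), were not called.

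Of 15 genes of sterol uptake, trafficking and storage 6 fell (40%, against 12.3% of all tested genes) and none rose. Tmem97, a sterol-regulated membrane protein, was at 86.3, 84.1 and 84.6 CPM against 45.8, 37.5 and 39.5 (-1.06 ± 0.12, adjusted p = 8.0e-04). Its controls were nearly identical, and all iKO-labelled libraries were lower. Lrp8, a lipoprotein receptor (-1.21 ± 0.18, adjusted p = 0.00336), Npc2, which hands cholesterol out of lysosomes (-0.50 ± 0.095, adjusted p = 0.00889), and Soat1, which esterifies cholesterol for storage (-0.61 ± 0.13, adjusted p = 0.0138), fell too. The call of Lrp8 ended with limma on log2(FPKM + 0.1) (-1.09, adjusted p = 0.0568) and with limma on log2(FPKM + 1) of all genes (-0.63, adjusted p = 0.134), and that of Soat1 without iKO 2 (-0.54, adjusted p = 0.06), without iKO 3 (-0.60, adjusted p = 0.056), with limma on log2(FPKM + 1) of all genes (-0.55, adjusted p = 0.0613) and with the replicate number as a block (-0.61, adjusted p = 0.0521).

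Of 10 genes of LXR and sterol efflux 1 fell (10%, against 12.3% of all tested genes), Lpcat3, a phospholipid-remodelling acyltransferase (-0.97 ± 0.15, adjusted p = 0.00339), and none rose. Nr1h3, which encodes the sterol receptor LXR alpha, was at 2.77, 2.32 and 3.18 CPM against 8.27, 3.92 and 5.96 (1.13 ± 0.38, adjusted p = 0.0727), higher in all 3 iKO-labelled libraries without being called. Mylip, an LXR target that degrades lipoprotein receptors, was at 16.99, 24.2 and 9.31 CPM against 30.5, 25.5 and 29.9 (0.77 ± 0.31, adjusted p = 0.132). Cyp27a1, which makes the LXR ligand 27-hydroxycholesterol, was at 4.02, 2.59 and 1.19 CPM against 4.35, 6.55 and 4.06 (0.94 ± 0.49, adjusted p = 0.235), also not called.

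Of 23 glycerolipid and phospholipid assembly genes 4 fell and 2 rose, shares near those of all genes (17.4% and 8.70%, against 12.3% and 8.15% of all tested genes). All 3 iKO-labelled libraries lay below all 3 controls for 9 of the 23 (39.1%, against 20.9%) and above them for 4 (17.4%, against 18.9%). Ptdss1, a phosphatidylserine synthase (-0.68 ± 0.10, adjusted p = 0.00299), and Agpat1, an acyltransferase of phosphatidic acid synthesis (-0.92 ± 0.19, adjusted p = 0.0125), fell, the latter call ending without iKO 2 (-0.90, adjusted p = 0.0535). Gpat4, a glycerol-phosphate acyltransferase and the most abundant of the list in CPM, was not called (-0.19 ± 0.093, adjusted p = 0.204). Lpin1, a phosphatidate phosphatase, was at 5.01, 9.70 and 7.43 CPM against 19.6, 19.4 and 19.9 and rose (1.41 ± 0.26, adjusted p = 0.00788). Chka, the first kinase of phosphatidylcholine synthesis, also rose (0.51 ± 0.12, adjusted p = 0.0185), and lost its call without control 1 (0.47, adjusted p = 0.0537), without control 3 (0.47, adjusted p = 0.0637), without iKO 1 (0.44, adjusted p = 0.0641), without iKO 3 (0.52, adjusted p = 0.0589), with limma on log2(FPKM + 1) of all genes (0.49, adjusted p = 0.0637) and with the replicate number as a block (0.52, adjusted p = 0.0582).

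**Figure D4:**
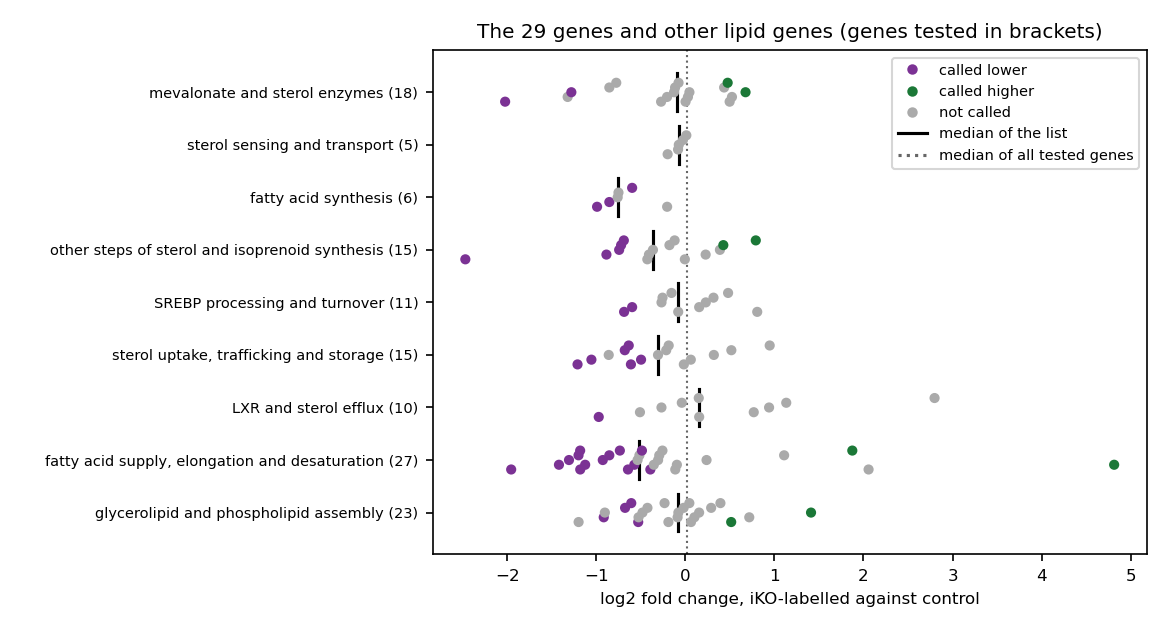
Log2 fold changes of the tested genes in the 3 groups of the 29 genes and the 6 further lists. Each point is a gene, the black bar the list's median and the dotted line the median of all tested genes (0.023). The point farthest right is Scd4, whose fitted value rests on 2 control counts. The fatty acid synthesis genes and the fatty acid supply, elongation and desaturation genes have the lowest medians of the 9 lists, at -0.76 and -0.52.

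Markers of the sorted cells and of cells a sort could carry along were summed beside these results. The 8 satellite cell markers were all present and summed to 8077 to 8767 CPM in the controls and 11182 to 11475 in the iKO-labelled libraries, but they did not move together: 5 rose and 2 fell. Pax7 was at 13.8, 9.70 and 10.6 CPM against 49.9, 47.6 and 50.9 (2.12, adjusted p = 2.2e-04) and Chodl rose too (2.51, adjusted p = 6.9e-05), while Myf5 (-0.62, adjusted p = 0.00136) and Itga7 (-0.68, adjusted p = 0.0059) fell. Sdc4 and Vcam1, both called higher, hold most of the sum. The adipocyte markers Adipoq, Plin1, Cidec, Lep and Cfd were at most 0.928 CPM in any library, and Fabp4, shared with endothelium, brought the list to 12.4 to 31.3 CPM in the controls and 16.4 to 19.95 in the iKO-labelled libraries, and Fabp4, the 1 of its 6 genes that passed the filter, was not called. The 6 fibro-adipogenic markers summed to 857 to 979.8 CPM in the controls and 704 to 959 in the iKO-labelled libraries, and the 6 macrophage markers to 109 to 183 CPM in the controls and 97.0 to 195 in the iKO-labelled libraries, with 0 called in either list. Endothelial (5 genes, 44.4 to 132 CPM in the controls and 71.5 to 87.2 in the iKO-labelled libraries), Schwann cell (5 genes, 15.7 to 35.3 CPM in the controls and 13.2 to 25.6 in the iKO-labelled libraries) and neutrophil markers (5 genes, 2.98 to 6.75 CPM in the controls and 4.07 to 6.44 in the iKO-labelled libraries) overlapped between the groups too.

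The 5 mural cell markers summed to 216 to 319.6 CPM in the controls and 93.1 to 118 in the iKO-labelled libraries, a gap that rests on Acta2, which was at 147, 256 and 189.9 CPM against 44.9, 47.5 and 33.4 (-2.24, adjusted p = 5.3e-04). The other 4 were not called and had overlapping libraries, among them Rgs5 (0.0094, adjusted p = 0.992), Myh11 (-0.061, adjusted p = 0.956) and Cspg4 (0.29, adjusted p = 0.798). The 6 muscle fibre markers summed to 16.4 to 64.2 CPM in the controls and 12.5 to 17.2 in the iKO-labelled libraries, ranges that overlap, with 1 called lower, Acta1. The part of the called markers in the lipid gene results was not tested.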

How the data were processed

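Trim Galore, STAR, featureCounts, Subread, DESeq2 and the build mm10 are named in the submitters' processing notes, without roles or versions. Amplified cDNA was made by Smart-Seq2, per the labels' protocols. Annotation and the treatment of reads with several matches were not given in the sources used here. The authors deposited raw counts per gene and library, and FPKM for the same genes, which follow median-of-ratios size factors of the counts. Rows without a gene name (551 of 46078, 0.108% to 0.123% of counts) were left out.

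Libraries were grouped by title. Counts were tested with edgeR 4.0.16 in R 4.3.3 (filterByExpr, minimum count 10 and total 15; TMM; quasi-likelihood test, group as the only term), and the SE is the log2 fold change divided by the square root of F. Alternatives were DESeq2 1.42.0, RLE factors, library totals, no filter, 5 CPM in 3 libraries, limma 3.58.1 on log2(FPKM + 1) or log2(FPKM + 0.1) for genes whose mean reached 1 FPKM, the former also over all genes, the replicate number as a block, and each library left out. The test was run on simulated data first. Counts by gene group and summed levels were chosen after seeing the data.

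The 29 genes and all lists were chosen with earlier results of these data known. Named genes are the 29, Paxbp1 and, of each further list, up to 4 with the smallest adjusted p and the most abundant. A few of these are given only in the counts, and markers as sums. Apart from the neighbours Ctsb and Acat3, genes outside the rule are marked as singled out after their values were seen. The totals per library, 23327359 to 28050748 counts, set the precision of low genes. Gene positions are from GENCODE M21 (GRCm38), promoters from RefSeq.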

Additional observations from a re-analysis of the deposited data

How the results depend on the processing

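Over the 15 alternative settings the calls of Acat2, Nsdhl, Acly and Fasn kept their side of the threshold. The number of the 29 genes called lower was 8 with DESeq2, and the number called higher 4 with DESeq2, scaling by library totals, no count filter or a filter of 5 CPM in 3 libraries, and 0 on log2(FPKM + 1) without a filter; those higher were sterol enzymes in each case (4 and 0). Of the 6 fatty acid synthesis genes 5 were called lower with DESeq2, no count filter or the 5 CPM filter. Leaving out each library in turn gave 0 to 3 genes called higher, 0 to 3 of them sterol enzymes, 21 to 30 other lipid genes called lower and 2 to 4 called higher. Those called higher numbered 10 with DESeq2 or library totals and 2 on unfiltered log2(FPKM + 1). The summed level of the sensing and transport genes ran from 0.932 to 0.981 of the control mean over libraries left out. Calls over all tested genes, both directions together, shifted too. They numbered 3315 of 16252 in the main test, 4235 of 16252 with DESeq2 and 3361 of 16252 with library totals. They were 3810 of 33017 without a count filter, 3562 of 10340 with the 5 CPM filter and 2320 of 33017 on unfiltered log2(FPKM + 1). With a library left out they ran from 2053 to 2816. The cause of these shifts was not tested.

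Signs turned for genes that were not called. Scaling by library totals, which moves the median of all genes by 0.13, turned Mvd (0.056), Hsd17b7 (0.018), Sc5d (0.0063), Srebf1 (0.052), Scap (0.059) and Stard4 (0.10). Mvd turned on log2(FPKM + 1) with and without a filter (0.018 in both), on log2(FPKM + 0.1) (0.031) and under the replicate block (0.013), and Stard4 with the 5 CPM filter (0.041) and on log2(FPKM + 0.1) (0.0015). With a library left out, signs turned within the ranges -0.38 to 0.24 (Mvd), -0.14 to 0.11 (Idi1), -0.049 to 0.15 (Sqle), -0.24 to 0.00076 (Hsd17b7), -0.082 to 0.21 (Ebp), -0.26 to 0.060 (Sc5d), -0.064 to 0.071 (Srebf2), -0.16 to 0.045 (Scap) and -0.17 to 0.19 (Stard4).

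With the replicate number of the titles as a block, 4 of the 29 genes were called lower, 2 higher, and 25 and 2 of the other lipid genes. Over all tested genes 2215 of 16252 were then called in either direction, against 3315 in the main test. Same-numbered libraries did not deviate together (correlations of -0.067, -0.0021 and -0.059, across genes). Deviations from a mean of only 3 libraries cannot decide whether the numbers mark pairs. The study speaks of pairs of mice without saying that the numbers mark them. Genes at few counts (Tm7sf2, Fdps, Scd4) could be measured only coarsely at this depth.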

Other observations

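Acat1, the mitochondrial counterpart of the thiolase Acat2, lies outside the lists and was singled out after its value was seen. It was at 120.3, 173 and 146 CPM against 69.4, 75.7 and 67.8 in controls 1 to 3 and iKO-labelled libraries 1 to 3, without overlap, and fell (-1.04 ± 0.14, adjusted p = 0.00188 by edgeR). Both thiolases that join acetyl-CoA were thus lower in the iKO-labelled libraries, while Hmgcs1, which uses their product in the cytosol, was higher.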
